A study of Mus musculus with 7 samples.

Results

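The 10 genes described here mark astrocytes and radial glia: Gfap, Vim, Nes, Sox9, Aldh1l1, Aqp4, Slc1a2, Slc1a3, Gja1 and Glul. They were taken by symbol from the 12393 genes that the arrays' annotation names through probe sets of a single gene. Each gene is given by its brightest probe set, and its other probe sets are set beside it. A probe set is the group of short oligonucleotides that measures a transcript on an Affymetrix array, and 26 probe sets measured these 10 genes.

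The cells came from mouse gliomas of 3 genotypes. Wild type stands for Ptprd+/+p16-/- (2 arrays), heterozygous for Ptprd+/-p16-/- (2 arrays) and null for Ptprd-/-p16-/- (3 arrays). All groups therefore lacked p16, a cell cycle inhibitor, and differed by label only in Ptprd, a receptor-type tyrosine phosphatase. All mice were of a mixed C57/BL6 and FVB/N background and carried Nestin tv-A, in which the Nestin promoter drives tv-A, the avian receptor that the RCAS virus needs to enter a cell. The virus carried PDGFB, a growth factor that drives glioma, together with GFP, and was injected into the brain between day 1 and day 3 after birth. Tumours were collected when symptoms appeared or at 12 weeks after injection. Living GFP+ cells (GFP+DAPI-) were sorted, and 75 ng of total RNA per sample was labelled from the 3′ end. Since a tumour can start only in a cell that expressed the Nestin transgene, Nes is both a measured gene and the source of the promoter that defined the starting cells. Arrays of a genotype are biological replicates by label, but whether each holds the tumour of 1 mouse is not said.

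Radial glia are the neural stem cells of the developing brain. They carry the intermediate filament proteins nestin and vimentin and the glutamate transporter GLAST (Slc1a3), and many of them later become astrocytes, which carry Gfap. Mature astrocytes clear glutamate from synapses, turn it into glutamine, share small molecules through gap junctions, and line blood vessels with endfeet rich in the water channel Aqp4. After injury astrocytes become reactive, a state known for higher Gfap and vimentin. PDGFB-driven gliomas of this kind are known for a close likeness to oligodendrocyte progenitors.

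The values are log2 expression levels, so a difference of 1 is a doubling. They were compared with limma, which fits all genes together and lends each gene part of the spread of the others. A gene is said to have risen or fallen where its Benjamini-Hochberg adjusted p over all 9243 genes tested lay under 0.05. All 10 genes were among those tested. To be tested, a gene had to exceed, on 2 or more arrays, the level under which 30% of an array's probe sets fell, which lay between 4.82 and 4.95. Only Aldh1l1 passed it on the heterozygous arrays alone, on 2 of 2, and on 0 of 2 wild-type and 0 of 3 null arrays, so this gene had to differ in order to be tested.

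The arrays were checked first. The 2 heterozygous arrays stood apart: they correlated with each other at 0.992 over all probe sets and with wild type between 0.976 and 0.985, whereas wild type and null correlated between 0.990 and 0.995. Ptprd itself read 10.86 and 10.89 on the wild-type arrays, 9.42 and 9.57 on the heterozygous and 9.61, 8.95 and 9.93 on the null arrays (exact two-sided permutation p = 0.0476 for wild type against the rest, the smallest that the 21 splits allow), so it set wild type apart but not heterozygous from null. Where its probes lie relative to the targeted part of the gene is not given in the sources used here. Heterozygous replicate 1 and null replicate 1 carried both Xist, made in female cells, and Y-linked transcripts. The difference between 3′ and 5′ control probe sets, a sign of RNA quality, was 0.61 to 0.83 on wild-type, 0.75 to 0.90 on heterozygous and 0.62 to 0.91 on null arrays.

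Against wild type, 5 of the 10 genes rose in heterozygous tumour cells and 0 fell. They were the 3 intermediate filament genes Gfap, Vim and Nes, the transcription factor Sox9 and the folate enzyme Aldh1l1. Without Aldh1l1, which passed the filter on the heterozygous arrays alone and so had to differ, 4 of 9 rose. The background was high: 10.1% of all genes tested were called in this comparison, 4.2% as higher and 5.95% as lower. The median difference of the 10 genes, Aldh1l1 included, was 1.40, against -0.04 over all genes. In bulk RNA, a larger share of cells of a type and more RNA per cell cannot be told apart.

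The sequences just upstream of the genes that rose are shown first, with Slc1a3, which was not called, for comparison. RefSeq windows of 250 bases before the start (build GRCm38.p6) were given for 8 of the 10 genes, Sox9 and Aqp4 not among them. The start is that of the window's own transcript: the last bases of the Aldh1l1 window lie within the annotated gene, and the Slc1a2 window lies inside the gene, before an inner start. Capitals mark matches, on either strand, to 5 short motifs of glial or general factors that are spelled out after the windows. The windows are Gfap at chr11:102897201-102897450 on the minus strand, Vim at chr2:13574061-13574310 on the plus strand, Nes at chr3:87970843-87971092 on the plus strand, Aldh1l1 at chr6:90550543-90550792 on the plus strand and Slc1a3 at chr15:8710808-8711057 on the minus strand.
Gfap: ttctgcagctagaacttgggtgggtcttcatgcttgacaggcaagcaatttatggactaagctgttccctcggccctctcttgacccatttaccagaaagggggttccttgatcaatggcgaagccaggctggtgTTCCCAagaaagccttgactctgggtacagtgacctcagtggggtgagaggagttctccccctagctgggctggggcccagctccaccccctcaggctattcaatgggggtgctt
Vim: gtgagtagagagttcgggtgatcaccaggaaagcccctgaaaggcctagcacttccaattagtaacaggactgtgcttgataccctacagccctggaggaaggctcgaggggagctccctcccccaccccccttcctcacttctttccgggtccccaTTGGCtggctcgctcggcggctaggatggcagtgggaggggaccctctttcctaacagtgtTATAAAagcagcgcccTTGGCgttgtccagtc
Nes: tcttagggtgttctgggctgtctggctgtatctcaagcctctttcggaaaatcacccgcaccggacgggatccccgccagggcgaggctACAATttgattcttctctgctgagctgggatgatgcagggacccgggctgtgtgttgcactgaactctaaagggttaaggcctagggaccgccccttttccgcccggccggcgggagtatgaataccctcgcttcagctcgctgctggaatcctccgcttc
Aldh1l1: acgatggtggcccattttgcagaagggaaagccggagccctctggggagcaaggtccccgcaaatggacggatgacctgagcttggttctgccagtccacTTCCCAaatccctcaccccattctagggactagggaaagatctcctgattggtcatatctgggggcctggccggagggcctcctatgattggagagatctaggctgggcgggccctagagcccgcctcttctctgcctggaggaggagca
Slc1a3: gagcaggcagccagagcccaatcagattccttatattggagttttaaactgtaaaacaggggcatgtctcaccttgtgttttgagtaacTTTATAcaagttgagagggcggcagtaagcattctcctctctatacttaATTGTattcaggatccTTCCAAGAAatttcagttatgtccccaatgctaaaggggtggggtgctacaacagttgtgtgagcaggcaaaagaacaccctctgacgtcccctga

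A motif match is a description of letters, not a binding site, and each motif was counted over the 32851 windows of the same length. Distances are from the start to the first printed base of a match. The core of RBPJ, the DNA-binding partner of Notch, was searched as TGGGAA. It was found in Gfap 115 bases before the start and in Aldh1l1 150 bases before it, both on the strand opposite to the gene, and 21.6% of all windows held it. The half-site of the NFI factors was searched as TTGGC and occurs in 41.5% of windows. Vim held it at 93 and at 16 bases, and also held the TATA box, searched as TATAAA and present in 12.4% of windows, at 32 bases. The SOX core was searched as ACAAT. Nes held it at 161 bases, and 27.7% of windows did. The dimer site of STAT factors, searched as TTCNNNGAA and present in 7.02% of windows, occurred in Slc1a3 at 96 bases and in 0 of the other 7 windows. Slc1a3 also held the SOX core at 112 bases and a TATA box at 161 bases, both on the opposite strand. Among the windows not printed, Slc1a2 held the NFI half-site at 114 bases, Glul held it at 114 and 51 bases, and Gja1 held 0 of the 5 motifs. The 4 printed windows of genes that rose had no motif common to all of them.

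Gfap encodes the intermediate filament protein by which astrocytes are best known. Its brightest probe set read 5.30 and 4.95 in wild type, 6.73 and 6.50 in heterozygous and 5.24, 5.30 and 4.92 in null cells. Both heterozygous arrays lay above the other 5, as they did for 15.3% of all genes tested, and wild type and null overlapped. The rise was 1.49 ± 0.18 (SE; 95% interval 1.06 to 1.92), or 2.81-fold (adjusted p = 0.00864). The call was lost in 2 of the 7 fits that left out 1 array: without wild type replicate 2 the difference was 1.31 (adjusted p = 0.0770) and without heterozygous replicate 1 it was 1.38 (adjusted p = 0.0565). Even on the heterozygous arrays Gfap was no bright probe set, since its percentile on the array ran from 30.7 at its lowest to 50.6 at its highest.

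Vim encodes vimentin, the intermediate filament protein of radial glia, of reactive astrocytes and of many mesenchymal cells. It read 9.80 and 9.12 in wild type, 11.65 and 11.55 in heterozygous and 9.36, 10.61 and 8.99 in null cells. The heterozygous arrays were again the highest, while null replicate 2 stood above the other null arrays and above both wild-type arrays. This was the largest rise of the 10 genes, 2.14 ± 0.49 (95% interval 0.98 to 3.31), or 4.41-fold, but with a wide error and an adjusted p of 0.0413. The call was lost without either wild-type array (adjusted p = 0.0991 without replicate 1 and 0.217 without replicate 2), without either heterozygous array (0.189 and 0.0966), without null replicate 1 (0.0638), with no filter on dim genes (0.0508) and with the 3′ to 5′ difference as a covariate (0.0622). The difference stayed between 1.80 and 2.48 over the 7 fits that left out 1 array.

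Nes encodes nestin, the intermediate filament protein of neural stem cells. It read 6.30 and 6.16 in wild type, 7.43 and 6.80 in heterozygous and 6.80, 6.60 and 6.60 in null cells. The heterozygous arrays lay above wild type, but heterozygous replicate 2 did not lie above null replicate 1. The rise was 0.89 ± 0.20 (95% interval 0.40 to 1.37), or 1.85-fold (adjusted p = 0.0418). Heterozygous replicate 1 carried much of it, as the difference was 0.57 without that array (adjusted p = 0.132) and 1.20 without the other. The call was also lost without wild type replicate 1 (0.96, adjusted p = 0.125) or 2 (0.82, adjusted p = 0.209). It was lost at the same difference of 0.89 without null replicate 1 (adjusted p = 0.0605), 2 (0.0601) or 3 (0.0643), with the 3′ to 5′ covariate (0.0849), and when only the groups compared were fitted (0.109).

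Sox9 encodes a transcription factor of radial glia and astrocytes that is needed for the switch from making neurons to making glia. It read 5.73 and 5.28 in wild type, 6.71 and 6.98 in heterozygous and 5.98, 5.91 and 5.82 in null cells. The 3 groups did not overlap, with wild type lowest and heterozygous highest, an order whose share over all genes was not counted. The rise in heterozygous cells was 1.34 ± 0.17 (95% interval 0.93 to 1.75), or 2.53-fold (adjusted p = 0.00962). Of the fits without 1 array, only the fit without wild type replicate 2 lost the call, with a difference of 1.12 (adjusted p = 0.0743). It was also lost when only the groups compared were fitted (adjusted p = 0.0555).

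Aldh1l1 encodes 10-formyltetrahydrofolate dehydrogenase, a folate enzyme widely used as an astrocyte marker. It read 4.75 and 4.45 in wild type, 5.71 and 6.40 in heterozygous and 4.75, 4.44 and 4.44 in null cells. The 5 wild-type and null values lay below the level of the filter. The rise was 1.46 ± 0.24 (95% interval 0.89 to 2.03), or 2.75-fold (adjusted p = 0.0175), but this gene could pass the filter only by being higher in 1 group. Without it, 4 of 9 genes rose. The call was lost without wild type replicate 1 (1.61, adjusted p = 0.0642) or 2 (1.31, adjusted p = 0.125), and when only the groups compared were fitted (adjusted p = 0.0689).

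Aqp4 and Gja1 did not pass the threshold against wild type. Both heterozygous arrays lay above the other 5 for each of them, a pattern that 15.3% of all genes tested showed. Aqp4, the water channel of astrocyte endfeet, read 8.82 and 7.80 in wild type, 9.89 and 9.95 in heterozygous and 8.54, 7.55 and 7.07 in null cells. Its difference was 1.61 ± 0.49 (95% interval 0.45 to 2.77, adjusted p = 0.0799). Gja1, which encodes the main gap junction protein of astrocytes, read 8.71 and 8.57 in wild type, 10.41 and 10.40 in heterozygous and 9.82, 8.09 and 8.90 in null cells. Its difference was 1.77 ± 0.47 (95% interval 0.66 to 2.88, adjusted p = 0.0583). The 2 heterozygous values of each gene were close to each other, and the wide errors came with the spread among the other arrays, such as an SD of 0.75 for Aqp4 and 0.86 for Gja1 among the 3 null arrays. Without null replicate 1 both genes were called, Aqp4 at an adjusted p of 0.0493 and Gja1 at 0.0250. Aqp4 was also called with averaged probe sets (1.66, adjusted p = 0.0373), and Gja1 without null replicate 2 (adjusted p = 0.0238), with only the groups compared (0.0290) and with an intensity trend in the variance (0.0479), each at a difference of 1.77.

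The 3 genes of glutamate handling showed no rise. Slc1a2 encodes GLT-1, the main glutamate transporter of mature astrocytes, and read 6.52 and 6.76 in wild type, 5.97 and 6.52 in heterozygous and 6.52, 6.35 and 6.56 in null cells. The groups overlapped, with heterozygous replicate 1 the lowest array, and the difference was -0.40 ± 0.20 (95% interval -0.86 to 0.06, adjusted p = 0.223). Slc1a3, which encodes GLAST, the transporter of radial glia and astrocytes, varied little: it read 10.35 and 10.30 in wild type, 10.02 and 10.30 in heterozygous and 10.28, 10.43 and 10.14 in null cells. Its difference was -0.16 ± 0.14 (95% interval -0.50 to 0.17, adjusted p = 0.486), an interval that lies below the smallest rise called among the 10 genes, the 0.89 of Nes. Glul encodes glutamine synthetase, which turns glutamate into glutamine. It read 11.26 and 11.03 in wild type, 10.35 and 11.61 in heterozygous and 11.10, 10.84 and 11.22 in null cells. The 2 heterozygous arrays held the lowest and the highest of the 7 values, and the difference was -0.17 ± 0.37 (95% interval -1.03 to 0.70, adjusted p = 0.804).

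**Figure D1:**
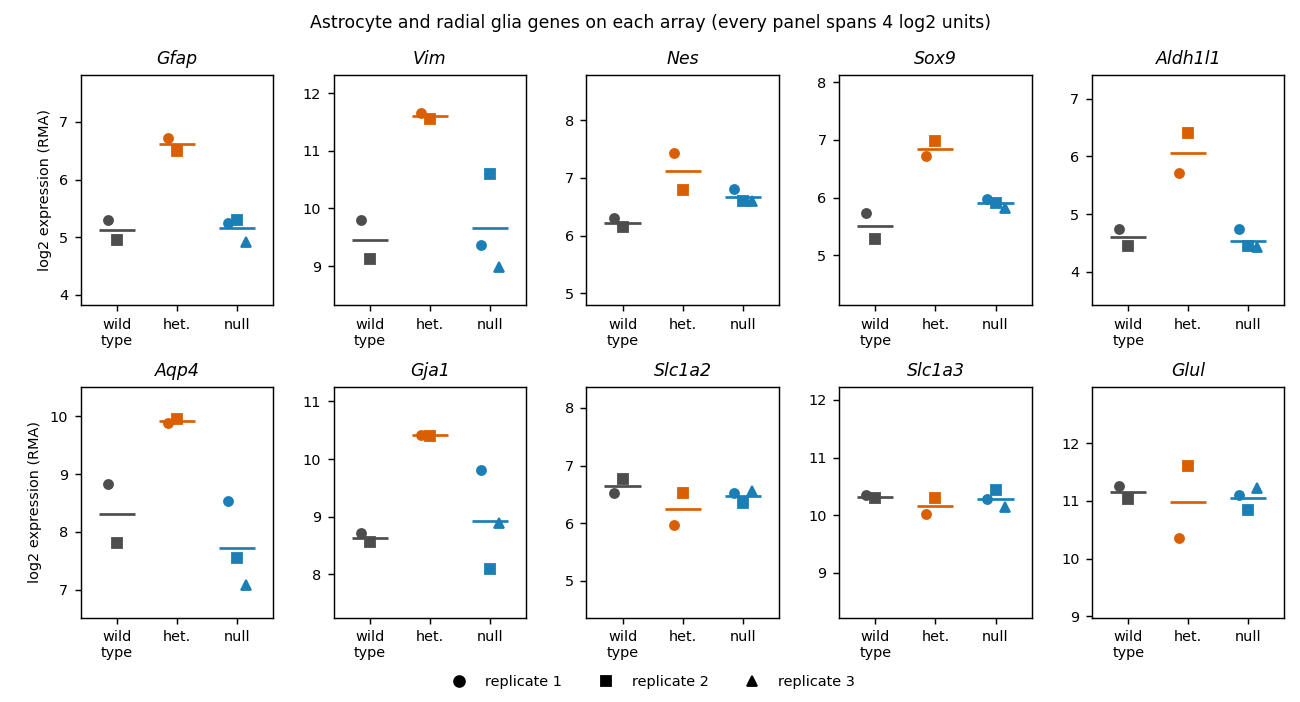
Log2 expression of each of the 10 genes (1 panel per gene, every vertical axis spanning 4 log2 units) by Ptprd genotype on the horizontal axis. Each point is an array, its shape gives the replicate number and the bar is the group mean. The 2 heterozygous arrays lie above the other 5 for Gfap, Vim, Sox9, Aldh1l1, Aqp4 and Gja1, overlap null for Nes, and do not stand above the rest for Slc1a2, Slc1a3 and Glul.

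By the plain criterion of groups that do not overlap, 7 of the 10 genes were higher on both heterozygous arrays than on both wild-type arrays (all but the 3 glutamate genes), where 26.2% of all genes tested were. Both heterozygous arrays lay above all other 5 for 6 of the 10, the same 7 without Nes, where 15.3% of all genes did. The counts of 7 and 6 include Aldh1l1, which was tested only because its heterozygous values exceeded the filter's level. Of the genes tested, 35.1% lay lower on both heterozygous arrays than on both wild-type arrays, and 0 of the 10 did.

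In null cells, 0 of the 10 genes were called against wild type. The background was 0%, since 0 of all genes tested were called (475 genes, Nes and Sox9 among them, had an unadjusted limma p under 0.05, and the smallest adjusted p was 0.882). The median difference of the 10 genes was -0.00, with 5 above 0 and 5 below, and values from -0.59 for Aqp4 to 0.44 for Nes. Nes and Sox9 were the 2 genes whose null arrays all lay above wild type, by 0.44 (95% interval 0.00 to 0.88) and 0.40 (95% interval 0.03 to 0.77), a pattern that 10.7% of all genes showed. Gfap differed by 0.03 (95% interval -0.36 to 0.42). The intervals of Vim (0.20, from -0.87 to 1.26), Gja1 (0.30, from -0.72 to 1.31) and Aqp4 (-0.59, from -1.65 to 0.47) were wide, as these genes varied most among the null arrays. The remaining differences were -0.05 for Aldh1l1, -0.17 for Slc1a2, -0.04 for Slc1a3 and -0.10 for Glul.

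Against heterozygous cells, 5 of the 10 genes fell in null cells and 0 rose, where the background was 8.96% of all genes, 3.96% as lower and 5% as higher. Those 5 were Gfap, Vim, Sox9, Aldh1l1 and Aqp4. Of these, Aldh1l1 passed the filter on the heterozygous arrays alone, so it had to differ in order to be tested. This comparison uses the same 2 heterozygous arrays as the one against wild type, so the comparisons are not separate evidence about them. Null minus heterozygous was -1.46 ± 0.17 for Gfap (adjusted p = 0.00782), -1.51 ± 0.22 for Aldh1l1 (adjusted p = 0.0150), -0.94 ± 0.16 for Sox9 (adjusted p = 0.0205) and -1.94 ± 0.45 for Vim (adjusted p = 0.0445). Of the 10 genes Aqp4 had the largest difference, -2.20 ± 0.45, or 4.60-fold lower (adjusted p = 0.0338). Gja1, at -1.47 ± 0.43, was not called (adjusted p = 0.0750), nor was Nes at -0.44 (adjusted p = 0.172). The differences of Slc1a2 (0.23), Slc1a3 (0.13) and Glul (0.07) were small and their intervals held 0. The null arrays lay below both heterozygous arrays for 6 of the 10 genes, Aldh1l1 among them, where 17.9% of all genes did.

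Over the 7 fits without 1 array, the null minus heterozygous difference stayed between -1.57 and -1.34 for Gfap, -2.42 and -1.61 for Vim, -1.08 and -0.81 for Sox9, -1.86 and -1.16 for Aldh1l1, and -2.61 and -1.88 for Aqp4. The adjusted p crossed the threshold in many of these fits, which have fewer arrays. Without heterozygous replicate 1 only Aldh1l1 was still called (adjusted p = 0.0661 for Gfap, 0.243 for Vim, 0.0870 for Sox9 and 0.189 for Aqp4). Without null replicate 3 only Gfap was called (adjusted p = 0.107 for Vim, 0.0697 for Sox9, 0.0504 for Aldh1l1 and 0.0855 for Aqp4). Without heterozygous replicate 2 Gfap and Aldh1l1 were still called and Nes was added (-0.76, adjusted p = 0.0416), whereas Vim (0.109), Sox9 (0.0616) and Aqp4 (0.0902) were not. Without null replicate 1 the genes Vim (adjusted p = 0.111) and Sox9 (0.0520) were lost and Gja1 was added (0.0323). Without null replicate 2 Aqp4 was lost (0.0628). Vim was also lost with no filter on dim genes (adjusted p = 0.0555), with the 3′ to 5′ covariate (0.0581) and with only the groups compared (0.0697). It was lost without either wild-type array too, but these losses are not separate from the last. A single wild-type array adds nothing to the spread, which then comes from the same heterozygous and null arrays.

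**Figure D2:**
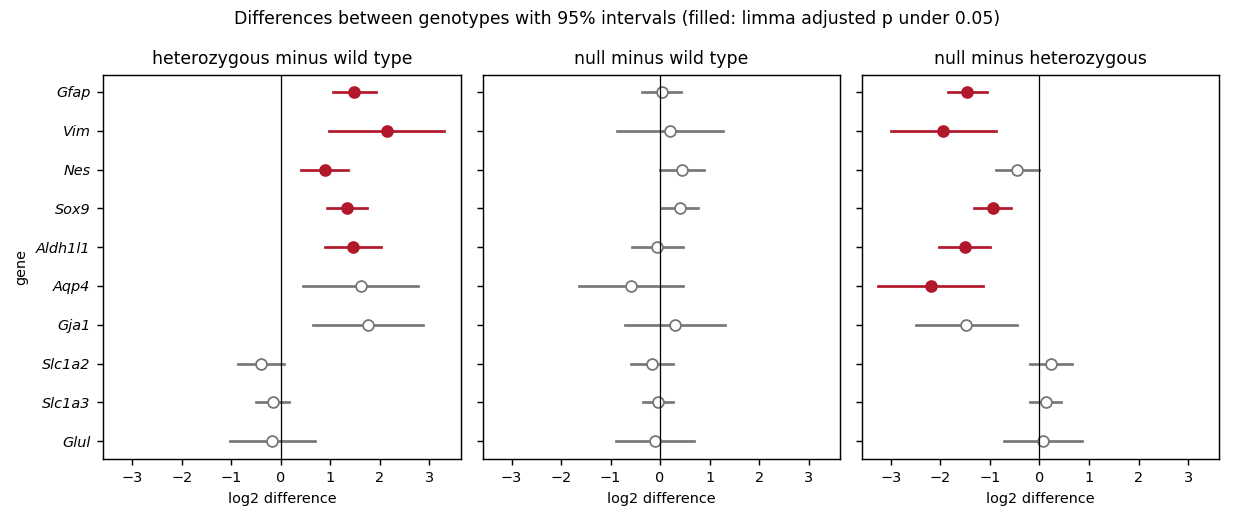
Log2 differences between genotypes (horizontal axes) for the 10 genes (vertical axis) with 95% limma intervals, 1 panel per pair of genotypes. Filled points have an adjusted p under 0.05: 5 of 10 in heterozygous minus wild type, all to the right, 0 of 10 in null minus wild type and 5 of 10 in null minus heterozygous, all to the left. The filled points include Aldh1l1, which passed the filter on the heterozygous arrays alone.

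Taking heterozygous and null together against wild type, 0 of the 10 genes were called, at a background of 0.325% (30 genes, with 1698 at an unadjusted p under 0.05, among them 6 of the 10). Sox9 came closest, at 0.87 (adjusted p = 0.0666), followed by Gfap at 0.76 (adjusted p = 0.0838). Nes and Sox9 were the 2 genes for which all 5 arrays with a lost Ptprd allele lay above both wild-type arrays, where 7.11% of all genes did, and 0 of the 10 lay below, where 8.28% did. The test for any difference among the 3 genotypes called 3 of the 10, Gfap (adjusted p = 0.0129), Sox9 (0.0184) and Aldh1l1 (0.0216), at a background of 5.65%. Aldh1l1 had to differ in order to be tested, since it passed the filter on the heterozygous arrays alone.

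When heterozygous replicate 1 and null replicate 1, the arrays with both Xist and Y-linked transcripts, were left out, 1 heterozygous array remained and its spread had to be taken from the other groups. Then 0 of the 10 genes and 0 of all genes were called in heterozygous against wild type (1802 genes at an unadjusted limma p under 0.05), and 0 in null against heterozygous. The heterozygous minus wild-type differences were 1.38 for Gfap, 2.09 for Vim, 0.57 for Nes, 1.48 for Sox9 and 1.81 for Aldh1l1. The direction was the same for 9 of the 10 genes, Glul being the exception. All 5 calls against wild type were also lost without wild type replicate 2, when 33 of all genes were called.

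The other probe sets gave the same direction for most genes. The second probe set of Gfap read 4.86 and 3.63 in wild type, 6.34 and 6.82 in heterozygous and 3.59, 3.53 and 3.52 in null cells, a difference of 2.33 between heterozygous and wild type and -0.70 between null and wild type. The other 2 probe sets of Vim differed by 2.55 and 2.32 between heterozygous and wild type, and the second ones of Sox9 by 1.30 and of Aqp4 by 1.71. For Nes the other probe sets gave smaller differences, 0.50 and, for a dim one (percentiles 9.6 to 17.0), 0.34. All 6 probe sets of Gja1 were higher on both heterozygous arrays than on both wild-type arrays, by 0.48 to 1.77, but only 4 lay above all other 5 arrays. The one that differed by 0.48 was dim (percentiles 11.0 to 19.1). Aldh1l1 had a second, dim probe set (percentiles 10.8 to 18.1 of the arrays) with a difference of 0.15, so its rise was seen by 1 of 2 probe sets. The other probe sets of Slc1a3 differed by -0.30 and -0.20, while the second one of Glul had the opposite sign to the brightest, 0.32. In all, 21 of the 26 probe sets had a higher heterozygous than wild-type mean. On 19 both heterozygous arrays lay above both wild-type arrays, and on 16 above all other 5. The shares over all probe sets were not counted. Among the genes tested, each by its brightest probe set, they were 44.9%, 26.2% and 15.3%. Probe sets of a gene share its RNA and are not replicates.

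**Figure D3:**
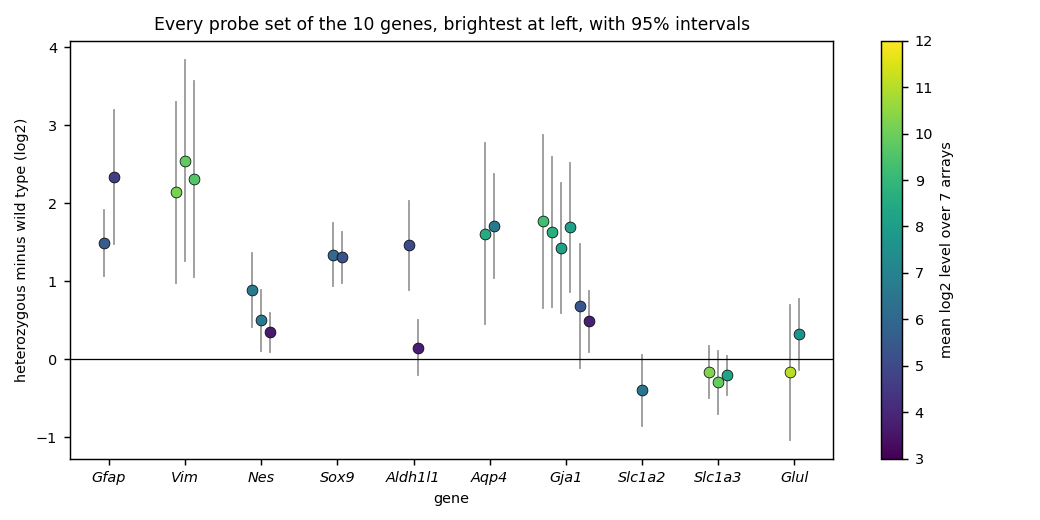
Heterozygous minus wild-type log2 difference (vertical axis) with 95% limma intervals for each of the 26 probe sets, grouped by gene along the horizontal axis with the brightest at the left, coloured by mean log2 level over 7 arrays. Every probe set of Gfap, Vim, Sox9, Aqp4 and Gja1 lies above 0, the 2 probe sets of Aldh1l1 differ from each other, and those of Slc1a2 and Slc1a3 lie below 0.

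Other genes of the same functions were read from lists of known genes, each against the background of 4.2% higher and 5.95% lower calls. Among 11 tested genes of intermediate filaments and their partners, 4 rose and 0 fell (median 0.60). Besides Gfap, Vim and Nes, this was Lmna, which encodes the nuclear lamins A and C (1.61, adjusted p = 0.00491). Thus 1 of the 8 genes outside the 10 rose, and their median was 0.33. Among 21 glial transcription factors and Notch genes, 4 rose and 2 fell (median -0.06), Sox9 being 1 of the 4: Id3, an inhibitor of basic helix-loop-helix factors, rose by 1.96 (adjusted p = 0.00730), Sox9 rose as above, and the Notch target Hes5 fell by 1.05 (adjusted p = 0.0265). The astrocyte factors Nfia, at -0.06, and Stat3, at 0.42, were not called.

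Of 15 genes of glutamate, glutamine and GABA handling, 1 rose and 2 fell (median -0.17). Slc1a5, a neutral amino acid transporter, rose by 0.80 (adjusted p = 0.0362). Slc38a3, a glutamine transporter of astrocytes, fell by 1.04 (adjusted p = 0.0430), and Abat, which breaks down GABA, fell by 0.72 (adjusted p = 0.0480). Of 13 genes of endfeet, water and potassium transport, 2 rose and 2 fell (median -0.12). Mlc1, a membrane protein of astrocyte endfeet, rose by 1.33 (adjusted p = 0.0202) and Lgi4 by 0.88 (adjusted p = 0.0355), while the potassium channel Kcnj10 fell by 0.65 (adjusted p = 0.0202). Neither of the lists of gap junctions (7 tested) and of folate enzymes (7 tested) had a call besides Aldh1l1. Their medians were 0.20 and 0.46, or 0.09 without Gja1 and 0.34 without Aldh1l1.

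A wider list of 37 other astrocyte markers moved in both directions, with 3 genes higher and 9 lower (median -0.17). The metallothioneins Mt2 and Mt1, which bind metal ions, rose by 2.76 (adjusted p = 0.00216) and 1.67 (adjusted p = 0.00403), and the endothelin receptor Ednrb fell by 1.18 (adjusted p = 0.00749). S100b, a calcium-binding protein made by astrocytes and by cells of the oligodendrocyte lineage, fell by 0.76 (adjusted p = 0.0331). Of 25 tested genes of radial glia and neural stem cells, 4 rose and 3 fell (median -0.08), and of the 22 outside the 10 genes 2 rose and 3 fell. Tnc, the matrix protein tenascin C, rose by 2.80 (adjusted p = 0.0124), while Ednrb and the growth factor Ptn (-0.54, adjusted p = 0.0251) fell. Fabp7, the radial glia fatty acid binding protein, differed by -0.44 (adjusted p = 0.0901) and the stem cell factor Sox2 by -0.04 (adjusted p = 0.817). Thus 5 of the 10 genes rose, or 4 of 9 without Aldh1l1, while 3 of 37 other astrocyte markers did. Whether the 10 genes differ from the wider list was not tested.

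Markers of other cells and states moved with the heterozygous arrays. Of 21 genes of reactive glia, which include Gfap and Vim, 14 rose and 1 fell (median 2.14), and 8 rose of the 14 that were above the filter's level beyond the heterozygous arrays. Outside the 10 genes, 12 of 19 rose, and 6 of the 12 that were above that level beyond the heterozygous arrays. The median of 2.14 includes the 7 genes above it on the heterozygous arrays alone. Timp1, a metalloprotease inhibitor, rose by 3.93 (adjusted p = 0.000895), but it was above the filter's level on the heterozygous arrays alone and so had to differ. Of 22 tested microglia and macrophage genes, 17 rose and 0 fell (median 1.31), and 14 of 19 without the genes above that level on the heterozygous arrays alone. The mean level of the 27 such genes on the array ran from 5.04 to 5.30 in wild type, 6.11 to 6.43 in heterozygous and 5.18 to 5.57 in null cells. Ptprc, which encodes the leukocyte antigen CD45, rose by 1.40 (adjusted p = 0.00491), from a mean of 4.35 to 5.75, and was likewise above that level on the heterozygous arrays alone. Cd53, a leukocyte surface protein that was not limited in this way, rose by 1.72 (adjusted p = 0.00864). Itgam, Mrc1, Fcgr1 and Gpr34 stayed below the filter's level on all 7 arrays. The cells had been sorted as living and GFP+, a gate that is meant to keep infected cells and their descendants. The part of microglia and macrophages in the rise of the 10 genes was not tested.

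Of 18 oligodendrocyte progenitor genes 0 rose and 10 fell (median -0.66), with a mean level of 11.22 to 11.28 in wild type, 10.43 to 10.69 in heterozygous and 11.05 to 11.12 in null cells. Rlbp1 fell by 1.76 (adjusted p = 0.00681), and Olig2, the transcription factor of that lineage, by 0.67 (adjusted p = 0.0251). The mean level of the 10 genes was 7.44 to 7.75 in wild type, 8.49 to 8.70 in heterozygous and 7.47 to 7.84 in null cells. Myelinating oligodendrocyte genes had 0 calls among 11 (median 0.54) and neuronal genes 0 higher and 2 lower among 8, with Snap25 at -0.84 and Gad1 at -1.24, while Rbfox3, Syt1 and 4 others were below the filter's level on all arrays. Of 10 endothelial and pericyte genes 1 rose, the smooth muscle gene Tagln (1.58), and Pecam1, Cdh5 and 4 others were below that level on all arrays. Of 6 ependymal and choroid plexus genes 2 rose, Foxj1 (1.71) and Rarres2 (1.97). The mean level of the 7 such genes on the array was highest on null replicate 1, at 7.86 against 5.75 to 6.93 on the other 6 arrays. Among the null arrays, Gja1, Aqp4, Nes, Sox9 and Aldh1l1 were also highest there, while Gfap, Vim, Slc1a2, Slc1a3 and Glul were not. Aldh1l1 was below the filter's level on that array. The share of all genes that were highest there was not counted, and a link to the choroid plexus genes was not tested. In null against wild type, all of these lists had 0 calls in either direction.

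**Figure D4:**
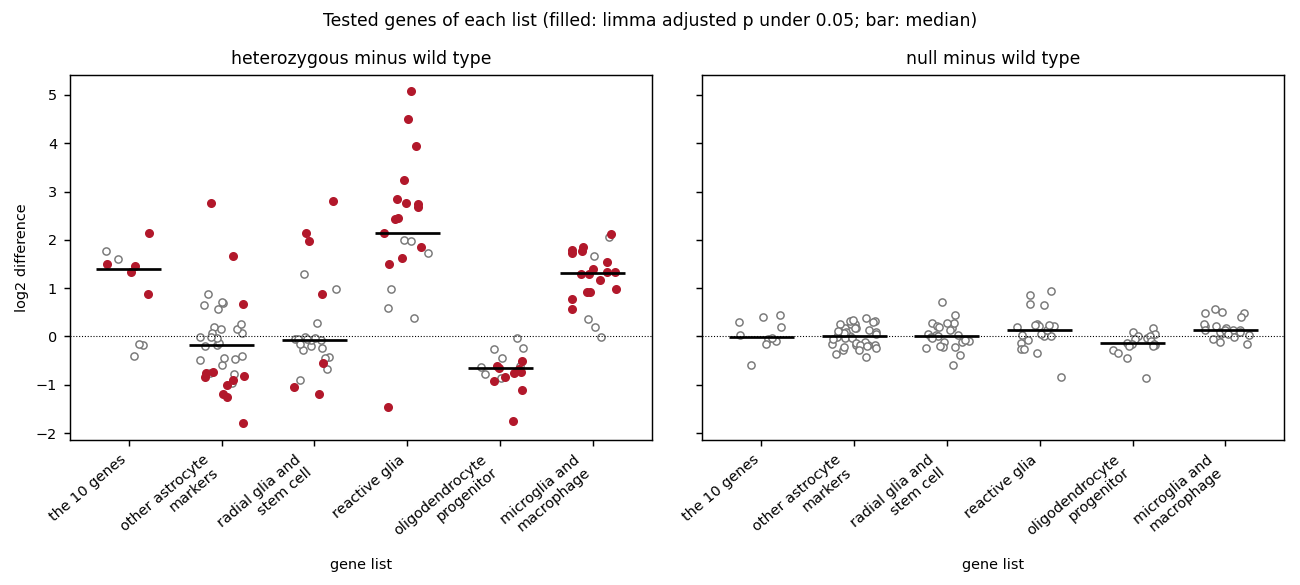
Log2 differences from wild type (vertical axes) of the tested genes in 6 lists (horizontal axes), heterozygous at left and null at right. The points and medians include genes above the filter's level on the heterozygous arrays alone. Each point is a gene, filled where its limma adjusted p lies under 0.05, and the bar is the median, at 1.40 for the 10 genes, -0.17 for other astrocyte markers, 2.14 for reactive glia, -0.66 for oligodendrocyte progenitors and 1.31 for microglia and macrophages in heterozygous cells, with 0 filled points in null cells.

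The genes nearest to each called gene were found by the root mean square difference of their profiles over the 7 arrays after each profile's mean was removed. Nearest to Gfap were Fas (0.124), Dlk1 (0.131) and Anxa4 (0.132), and nearest to Vim were Cdkn1a (0.198), Hk2 (0.204) and Psrc1 (0.214). Sox9 had the closest neighbour of all, Zfp36 at 0.0594, where the SD of Sox9 itself over the arrays was 0.588. Pcolce2 (0.136) and Col6a2 (0.153) followed. Nearest to Aldh1l1 were Itga6 (0.0911), Mlc1 (0.148) and Slc22a4 (0.149). Nearest to Nes were Pmf1 (0.112), C1ra (0.123) and Zbp1 (0.127). Aqp4 had no such close neighbour, its nearest being Pde1a (0.378), Id4 (0.402) and Mlc1 (0.425), so Mlc1 was near to both Aldh1l1 and Aqp4. None of the 10 genes was among the 3 nearest of these 6. With 7 arrays, of which the 2 heterozygous stand apart, such likeness rests mainly on the heterozygous arrays.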

How the data were processed

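RNA of sorted GFP+ glioma cells from 3 Ptprd genotypes was hybridised to 7 Affymetrix arrays. The authors deposited log2 expression values, and per the submitters' processing notes these were made with RMA and Partek 6.6. RMA sets all arrays to a common distribution, so a shift of all genes in 1 direction cannot be seen. Of the 22626 probe sets other than controls, 41.7% held the same value on 2 or more arrays, 6 of those of the 10 genes among them. These 6 include the brightest ones of Gfap, Nes, Aldh1l1 and Slc1a2. Of those brightest ones only that of Nes was tied within a genotype, on null replicates 2 and 3. What such ties did to the estimated spread was not tested. No pair of arrays was identical.

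By the platform annotation 20380 probe sets had 1 gene, 691 several, and 1555 were unnamed here. Each of the 12393 genes was represented by its brightest probe set, and 9243 exceeded the level of percentile 30 on 2 or more arrays. limma 3.58.1 in R 4.3.3 fitted a mean per genotype to all 7 arrays (4 residual degrees of freedom), with two-sided moderated tests and Benjamini-Hochberg adjustment over the 9243 genes. The fit was tested on simulated data. P-values reflect only how these 7 arrays vary, which may be partly technical, and so few arrays limit the precision.

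The 10 genes, the 16 lists (the 10 genes among them) and the tests were chosen with earlier results of these data known. Of each list, up to 3 called genes of smallest p in heterozygous against wild type were named, and of each called gene the 3 nearest genes. S100b, Fabp7, Sox2, Olig2, Nfia, Stat3, Lgi4, Gad1 with Snap25, and genes named as dim were added after their values were seen, if not named by that rule. Alternatives covered the probe set, the filter, centring, the variance model, a replicate block, a quality covariate, arrays left out and the groups fitted.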

Additional observations from a re-analysis of the deposited data

How the results depend on the processing

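For each pair of genotypes 16 alternatives were run. Averaging probe sets by gene left 9 of the 10 genes tested and the 50th percentile filter 7. In heterozygous against wild type (938 genes, 5 of the 10 higher) the counts were 217 genes and 2 of the 10 with a replicate block, 372 and 3 with the 3′ to 5′ covariate, 172 and 3 with only the groups compared, 33 to 802 and 0 to 5 without 1 array, and 0 and 0 without the arrays with Xist and Y-linked transcripts. The 50th percentile filter left 3 of the 10. In null against heterozygous (828 genes, 5 of the 10 lower) they were 25 genes and 0 of the 10 with the block, 471 genes with the covariate, 355 genes with only the groups compared, 3 of the 10 with the 50th percentile filter, 90 to 732 genes and 1 to 4 of the 10 without 1 array, and 0 and 0 without the Xist and Y-linked arrays (1426 genes at an unadjusted limma p under 0.05). In null against wild type the count of 0 genes became 1 with averaged probe sets and 0 to 1 without 1 array. With both groups of lost alleles against wild type (30 genes, 0 of the 10) they were 55 genes with an intensity trend, 0 with the block (1414 unadjusted by limma), 3 with the covariate, 0 to 22 without 1 array, 0 without the Xist and Y-linked arrays (1359 unadjusted by limma), and 1 of the 10, Sox9, with averaged probe sets. For any difference (522 genes, 3 of the 10) they were 821 genes and 5 of the 10 with the trend, 29 and 0 with the block, 217 genes with the covariate, 1 of the 10 with the 50th percentile filter, 34 to 470 and 0 to 5 without 1 array, and 0 and 0 without the Xist and Y-linked arrays (1338 unadjusted by limma). Some of these fits have fewer arrays or genes, and why the counts changed was not tested.

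Sign changes occurred only in differences that were not called, and ranges here are over the fits without 1 array. In heterozygous minus wild type, Glul ranged from -0.79 to 0.46 and became 0.075 with averaged probe sets and 0.46 without both Xist and Y-linked arrays. In null minus wild type, Gfap ranged from -0.15 to 0.20, Vim from -0.28 to 0.54, Aldh1l1 from -0.20 to 0.097, Slc1a3 from -0.11 to 0.035, Gja1 from -0.14 to 0.72 and Glul from -0.21 to 0.018. Gfap also became -0.34 with averaged probe sets and -0.017 without both Xist and Y-linked arrays, Slc1a3 0.0039 with median centring and 0.035 with the block, and Gja1 -0.14 without both Xist and Y-linked arrays. In null minus heterozygous, Slc1a2 ranged from -0.048 to 0.51, Slc1a3 from -0.013 to 0.26 and Glul from -0.55 to 0.70. Without both Xist and Y-linked arrays these became -0.072, -0.012 and -0.58, and Glul became -0.083 with averaged probe sets and -0.013 with the block. With both groups of lost alleles together, Aqp4 ranged from -0.00022 to 1.02 and Glul from -0.45 to 0.18, and Glul became 0.033 with averaged probe sets and 0.17 without both Xist and Y-linked arrays.

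The labels do not say that the replicate numbers pair the samples. Deviations from the group means cannot settle it, since in a group of 2 arrays they are equal and opposite. Deviations of same-numbered arrays correlated at 0.111 for the wild type and heterozygous groups, at -0.179 and -0.414 for wild type and null, and at 0.0217 and -0.193 for heterozygous and null. Among the 10 genes the block kept the calls of Gfap and Sox9 in heterozygous against wild type and none in null against heterozygous.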
